A study of Marchantia polymorpha with 6 samples.

Results

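A set of 103 gene models of the liverwort Marchantia polymorpha was expressed in the wild-type thallus and had far lower transcript levels in the mutant Mpbes1. The members were chosen from 19287 gene models by their read counts in both genotypes. A member had a mean of at least 5 CPM (the count over the library's total, times 1000000) in the wild type Tak-1, a Tak-1 mean at least 8 times the Mpbes1 mean, and more than 3 counts summed over the Mpbes1 libraries. In addition, its lowest Tak-1 value lay above its highest Mpbes1 value. The size of the difference between genotypes is therefore a property of the choice, and it is described here without a test. Of the 10508 models with at least 5 CPM in Tak-1, the members made up 0.980%.

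Messenger RNA was sequenced from thalli with apical notches of 3 Tak-1 plants and 3 Mpbes1 plants, each plant being 1 library and an independent biological replicate per the series' design text. Tak-1 is a male wild-type accession, and Mpbes1 carries a CRISPR-generated mutation of the gene for the transcription factor BES1. All plants were 30 days old, received no treatment and grew in long days of 16 h light. The labels name 1 mutant genotype and describe neither the edit nor the number of independent lines, so an effect of the mutation and a property of 1 line cannot be told apart. No batch is named in the labels. Total counts were 11650752 to 13609401 per Tak-1 library and 11597664 to 17741253 per Mpbes1 library.

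BES1 belongs to the BES1/BZR1 family of plant transcription factors. In flowering plants such as Arabidopsis, these proteins are held inactive by GSK3-type kinases and enter the nucleus when brassinosteroid hormones are sensed, where they activate some growth genes and repress others. Marchantia is a haploid plant through most of its life, and its thallus grows from stem cells in the apical notches and differentiates an upper side with air chambers and a lower side with rhizoids. RNA of the whole thallus pools all of these cells, so fewer cells of a type and less RNA per cell cannot be told apart in any value given here.

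None of the deposited gene identifiers matched the reference gene table (0 of 19287), which belongs to another assembly. The members are therefore given by position on the scaffolds of the deposited table, 2 of them with their identifier, and no function is stated for them. For the same reason, the level of the mutated gene and the markers of thallus cell types were not analysed here. No sequences are printed, as no genome of the files' build was used. An exon block below is an exon of any isoform, merged with the exons it overlaps.

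Together the members held 0.401%, 0.478% and 0.484% of all counts in the 3 Tak-1 libraries and 0.0171%, 0.0192% and 0.0230% in the 3 Mpbes1 libraries. The means were 0.454% ± 0.046 and 0.0198% ± 0.0030 (SD, n = 3). A single member supplied 21.3% of the members' counts in Tak-1, and the 3 most abundant members supplied 41.5%. The first Tak-1 plant was the lowest and the third Mpbes1 plant the highest of its genotype.

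**Figure D1:**
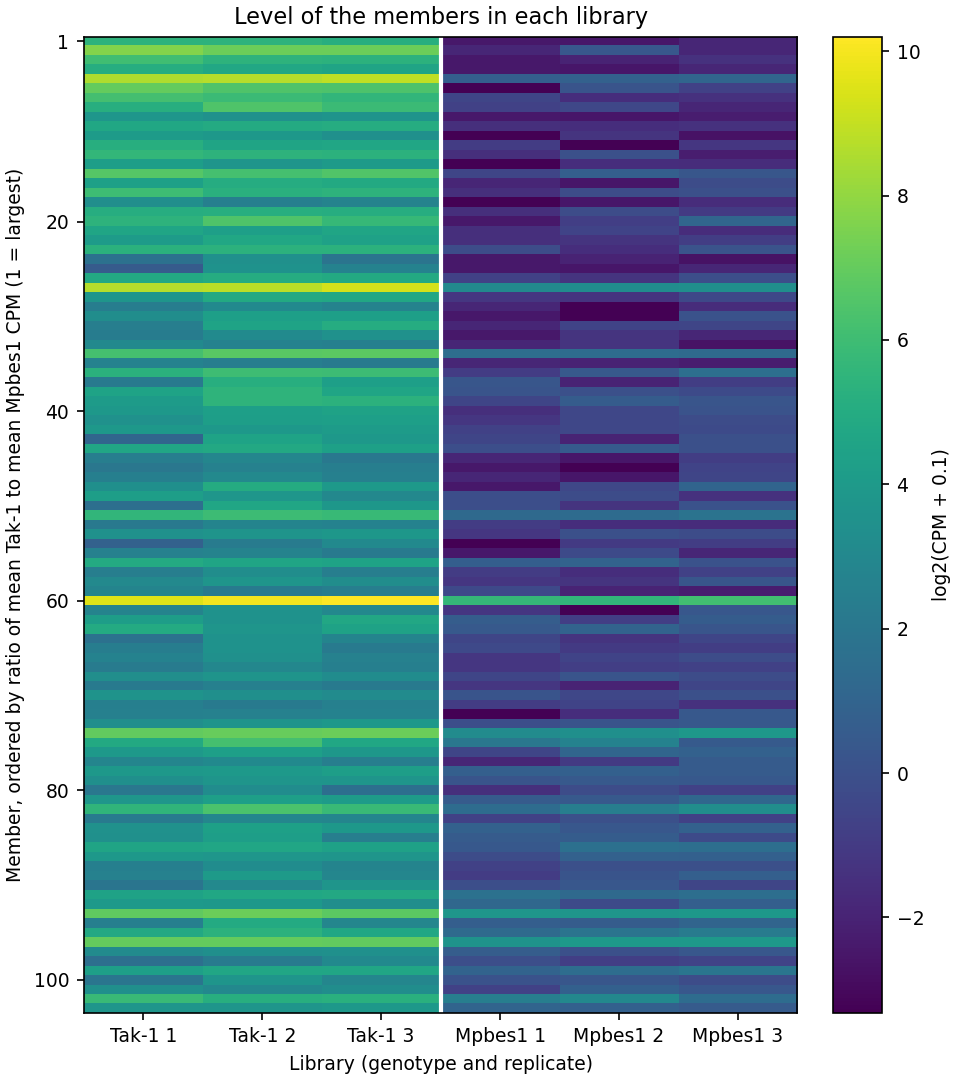
Level of each of the 103 members (rows, ordered by the ratio of mean Tak-1 to mean Mpbes1 CPM) in the 6 libraries (columns), as log2(CPM + 0.1). Every row is brighter in the 3 Tak-1 columns than in the 3 Mpbes1 columns by construction, and the rows differ in how much signal is left in Mpbes1.

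In Tak-1 the members spanned 5.01 to 976 CPM, with a median of 16.1 CPM and quartiles of 7.89 and 31.1 CPM. In Mpbes1 they spanned 0.0927 to 56.6 CPM with a median of 0.633 CPM, and 67 of the 103 were under 1 CPM. Only 4 members kept more than 10 CPM in the mutant. The ratio of the means ran from 8.16 to 360, with a median of 19.3. It was 8 to 16 in 41 members, 16 to 32 in 23, 32 to 100 in 25 and at least 100 in 14. The last class had the highest median Tak-1 CPM, at 42.2 against 12.5 in the class of 8 to 16, although the member of highest CPM lay in the class of 16 to 32. CPM counts reads and is not corrected for length. The median summed exon length was 1296.5 bases at a ratio of at least 100 and 2050 bases at 8 to 16. Only a gene with many wild-type reads can show a large ratio when more than 3 counts are required in the mutant, so CPM and ratio are not separate measures here. Over the members, Spearman's rho of Tak-1 CPM with ratio was 0.32 (103 genes sharing the same 6 libraries, a description).

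All 103 members passed the filter on low counts and were called lower by edgeR's quasi-likelihood test. Among the 12313 genes tested, 21.1% were called lower, and 7.16% were called at least 2-fold lower. Because the members were picked on the same contrast, nothing is read from their count. It was 100, 99 and 98 with the first, the second or the third Mpbes1 library left out, in that order. The median log2 fold change was -4.29 over the members and 0.01 over all genes tested. Separation of all 3 Tak-1 values from all 3 Mpbes1 values, which the choice demands, held in 23% of the 10508 genes of at least 5 CPM, and a ratio of at least 8 in 1.19%. For 59 of the 103 members even the lowest Tak-1 value was at least 8 times the highest Mpbes1 value. The narrowest gap was 2.28 times, at the gene on scaffold_121 from 152349 to 153952.

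**Figure D2:**
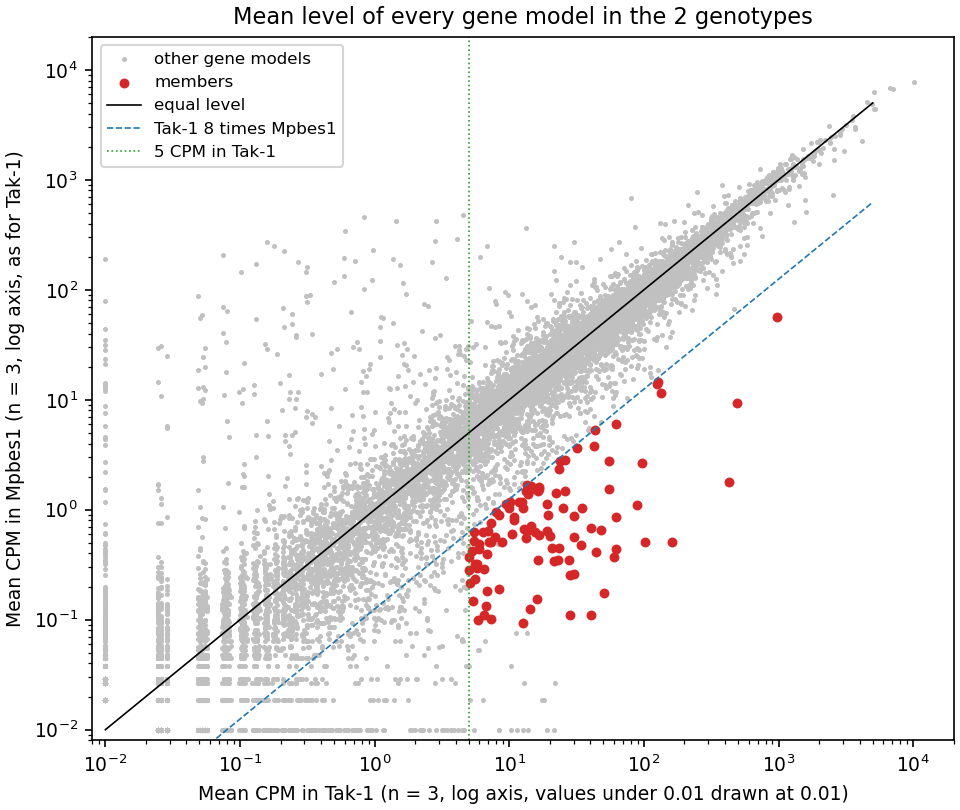
Mean CPM of every gene model with a read in Tak-1 (x axis) and Mpbes1 (y axis), n = 3 libraries each, both axes logarithmic, with members in red. The members occupy the corner right of 5 CPM and below the line where Tak-1 is 8 times Mpbes1, while most models lie along the line of equal level.

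Values just outside the limits lay close to those just inside. The smallest ratios among members were 8.16, 8.21 and 8.40, and the largest among genes that missed only this limit were 7.99, 7.84 and 7.55. There were 2292 such genes. By level, members began at 5.01, 5.06 and 5.15 CPM, and the nearest of the 77 genes that missed only this limit had 4.92, 4.90 and 4.75 CPM. By mutant reads, 2 members had 4 counts over the 3 Mpbes1 libraries, while 21 genes met every other condition with at most 3 counts. A single gene missed only the separation of the genotypes. It lies on scaffold_68 from 774541 to 776292, with 0.147, 0.700 and 23.7 CPM in the Tak-1 libraries and 0.517, 0.790 and 0.169 CPM in the Mpbes1 libraries, so that its Tak-1 mean came from 1 plant.

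The member with the largest ratio was Mapoly0004s0233.v3.1, with 4 exon blocks on the minus strand of scaffold_4 from 2470178 to 2473676. Its levels in the 3 Tak-1 libraries were 42.6, 42.7 and 35.2 CPM, and in the 3 Mpbes1 libraries 0.0862, 0.0790 and 0.169 CPM. The mutant values stand for 1, 1 and 3 reads. A count of 3 in a library corresponds to 0.169 to 0.259 CPM in the Mpbes1 libraries, so the ratio of 360 rests on reads at the edge of counting and cannot be ranked closely against its neighbours.

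The next members in order of ratio included several on scaffolds that carry a single gene model. The gene on scaffold_2590 from 1305 to 2679, with 2 exon blocks, had 204, 143 and 141 CPM in Tak-1, against 0.172, 1.19 and 0.169 CPM in Mpbes1, a ratio of 320. The gene on scaffold_3939 from 1329 to 2242, also with 2 exon blocks, had 33.7, 27.6 and 23.6 CPM in Tak-1, against 0.0862, 0.0790 and 0.169 CPM in Mpbes1, a ratio of 254. Its mutant values again stand for 1, 1 and 3 reads, so this ratio too rests on the edge of counting. The gene on scaffold_2298 from 875 to 2743 had 130, 87.4 and 85.7 CPM in Tak-1, against 0, 1.03 and 0.507 CPM in Mpbes1, a ratio of 198. In all 3 the first Tak-1 plant was the highest. The mutant plants differed too, with 15 of the 20 mutant reads on scaffold_2590 in the second Mpbes1 library. Without that library the log2 fold change on scaffold_2590 was -9.86 instead of -8.43, and that on scaffold_2298 was -8.37 instead of -7.61.

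The gene on scaffold_24 from 922131 to 924207 combined a high level with a large ratio of 241. It had 378, 420 and 483 CPM in Tak-1, against 1.55, 1.74 and 2.03 CPM in Mpbes1. It kept 18 to 36 reads in each mutant library, and the 3 mutant plants differed little. By contrast, the gene on scaffold_15 from 359042 to 360947 varied widely in the wild type, with 35.7, 89.2 and 60.0 CPM, and had 0.517, 0.632 and 0.169 CPM in Mpbes1. The gene on scaffold_23 from 1585734 to 1586817 had 13.6, 11.5 and 12.8 CPM in Tak-1 and a total of 4 reads in Mpbes1, at the limit of the choice. The gene on scaffold_114 from 58201 to 59145, with 1 exon block, had 26.7, 30.3 and 33.0 CPM in Tak-1, against 0.259, 0.237 and 0.282 CPM in Mpbes1.

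Levels of different genes can be compared only per length, as RPKM (CPM per kb of exon). On this scale 33 of the 103 members lay above the median of the genes with at least 5 CPM in Tak-1 (15.6 RPKM), and in Mpbes1 1 of them still did. Mapoly0137s0006.v3.1, on the minus strand of scaffold_137 from 95890 to 98109 with 2 exon blocks, was the most abundant. It had 459, 628 and 731 RPKM in Tak-1 and 32.5, 29.7 and 43.3 RPKM in Mpbes1. The groups were far apart, and yet this member kept 2447 mutant reads. Its rank by RPKM among all models moved from 125 to 2541, the highest rank of any member in the mutant.

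The second most abundant member, with 1 exon block on scaffold_32 from 796691 to 798221, left far less behind. It had 268, 287 and 416 RPKM in Tak-1 and 5.52, 6.09 and 6.85 RPKM in Mpbes1, and its rank moved from 246 to 8893. The gene on scaffold_24 followed with 213, 236 and 271 RPKM in Tak-1 and a fall in rank from 321 to 11446. Among these 3 leading members the third Tak-1 plant was the highest each time.

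Other abundant members differed in how much was left. The gene on scaffold_2 from 825172 to 826936 had 91.9, 89.9 and 88.7 RPKM in Tak-1 and 8.58, 11.2 and 11.2 RPKM in Mpbes1. The gene on scaffold_86 from 588236 to 595095, with 8 exon blocks, had 57.6, 70.6 and 53.7 RPKM in Tak-1 and 6.77, 6.48 and 7.18 RPKM in Mpbes1. Both lay near the lower limit of the ratio, at 8.72 and 8.91. The coefficient of variation over the plants was 1.77% in Tak-1 and 14.8% in Mpbes1 on scaffold_2. On scaffold_86 it was 14.6% in Tak-1 and 5.16% in Mpbes1. The gene on scaffold_25 from 1202092 to 1205075 had a ratio of 36.7, with 57.1, 81.4 and 84.8 RPKM in Tak-1 and 2.12, 2.06 and 1.90 RPKM in Mpbes1. The gene on scaffold_88 from 365722 to 366610, with 1 exon block, was among the leading members by level and by ratio. It had 80.7, 66.7 and 53.4 RPKM in Tak-1 and 0.679, 0.267 and 0.317 RPKM in Mpbes1, a ratio of 159. The genes on scaffold_25 and scaffold_86 overlap a model on the opposite strand, as does the member on scaffold_94 from 587268 to 592459, and reads of both strands may be mixed there. In the 1000 highest models by RPKM there were 5 members in Tak-1 and 0 in Mpbes1, where the first member ranked 2541.

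Of the 103 members, 92 had at least 1 read in every Mpbes1 library and 11 had 0 counts in 1 of the 3. At least 10 reads in each Mpbes1 library were found for 30 members, and for 6 no library had more than 3. The mutant plants varied by a median coefficient of variation (CV) of 44.9% over the members, and counting alone gives a median of 33.3% at these read numbers. In 30 members the mutant CV was over 2 times what counting gives. The gene on scaffold_216 from 123089 to 124483 had 0.0862, 0 and 0.958 CPM in Mpbes1, with nearly all of its 18 mutant reads in the third library. The gene on scaffold_44 from 325635 to 328491 had 0, 0.237 and 1.24 CPM in Mpbes1 and a steady 5.73, 6.07 and 6.18 CPM in Tak-1. The third Mpbes1 library, the deepest, held the highest value for 52 members (50.5%), against 37.5% of the other genes of at least 5 CPM. What moves with that library was not tested.

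The wild-type plants differed from each other in the members far more than in most genes. The median CV over the 3 Tak-1 plants was 22.3% for the members and 8.02% for the other 10405 genes of at least 5 CPM, and counting alone gives 6.99% and 4.41%. A CV over 30% was found for 32 members (31.1%) and for 1.89% of the other genes. A CV over 50% was found for 18 members (17.5%) and 0.336% of the others. This spread was not a condition of the choice, although a high value in 1 plant raises the mean that the choice uses, and a low value in 1 plant can break the separation. No test was made of it.

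The contrast held at each level of expression. Between 5 and 10 CPM the median CV was 27.2% for members and 13.7% for other genes, and between 10 and 30 CPM it was 19.7% and 9.45%. It was 24.3% and 7.16% between 30 and 100 CPM, and 18.3% and 6.69% in the 8 members and 2214 other genes over 100 CPM. In that last class no member had a CV over 30%. Among genes with smaller falls the spread was intermediate. The median CV was 14.7% where the Tak-1 mean was 2 to 4 times the Mpbes1 mean. It was 19.3% at 4 to 8 times, not far below the 22.3% of the members. These classes are cut on the mean of the same 3 Tak-1 libraries, so a high value in 1 plant can raise both ratio and CV. The order of the classes is therefore a description only. A CV over 30% was found for 14.5% of the 339 genes whose Tak-1 mean was 2 to 4 times the Mpbes1 mean, and for 18.3% of the 109 genes at 4 to 8 times. It was found for 1.15% of the 9723 genes within 2 times and for 5.66% of the 212 genes at over 2 times in Mpbes1. Of the 21 genes of at least 5 CPM with at most 3 mutant counts, 3 passed that limit (14.3%), and the median CV of the 21 was 18.6%.

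**Figure D3:**
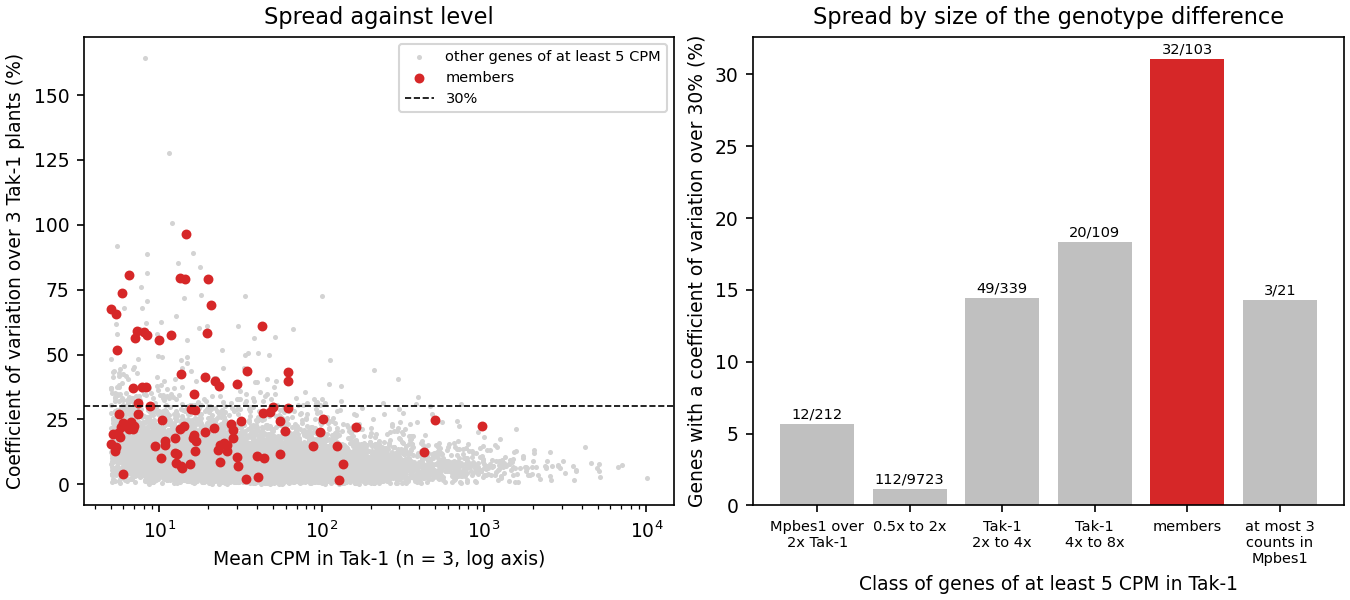
Left, coefficient of variation over the 3 Tak-1 plants (%) against mean Tak-1 CPM (log axis) for members in red and other genes of at least 5 CPM in grey. Right, share of genes with a coefficient of variation over 30% in classes of the ratio between genotypes, with numbers of genes above the bars, where the members have 31.1% and genes within 2 times 1.15%.

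Many of these genes shared an order of the plants. The second Tak-1 plant was the highest for 23 of the 32 members with a CV over 30%, and the first plant was the lowest for 23. The same order appeared in the 197 other genes with a CV over 30%, of which 74.1% were highest in the second plant and 62.4% lowest in the first. Over all 103 members, the second plant was the highest for 53 and the first the lowest for 59. Among the 14 members with a ratio of at least 100 the order differed. The first plant was the highest for 10 of them and the lowest for 3, and 1 of the 14 had a CV over 30%. Among the remaining 89 the first plant was the highest for 16. Whether growth stage, handling or the make-up of the sampled tissue moved with this order was not tested.

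The most variable member was the gene on scaffold_6 from 1869155 to 1873715. It had 5.66, 30.7 and 7.30 CPM in Tak-1, against 1.55, 1.42 and 1.97 CPM in Mpbes1, so its excess came mainly from the second plant. Its edgeR call was lost without any 1 Mpbes1 library, with log2 fold changes of -3.32 to -3.05, with no filter on low counts (-3.14) and in the test against a 2-fold change. Without the second Tak-1 library its log2 fold change was -1.997 instead of -3.149. The gene on scaffold_124 from 573661 to 574377 had 1.40, 11.9 and 6.27 CPM in Tak-1 and at most 0.169 CPM in any Mpbes1 library. Its log2 fold change was -5.71, and -4.94 without the second Tak-1 library. At the other end, the gene on scaffold_81 from 395035 to 396472 had 33.7, 35.0 and 34.2 CPM in Tak-1, against 0.259, 0.790 and 0.395 CPM in Mpbes1. The gene on scaffold_3 from 3275350 to 3280179 had 39.2, 41.5 and 41.0 CPM in Tak-1, against 0.776, 0.237 and 1.01 CPM in Mpbes1. Strong loss in the mutant was thus found in genes with steady and with unsteady wild-type levels, and over the members CV and ratio had a Spearman's rho of -0.01 (103 genes, same 6 libraries, a description).

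The members lay on 72 scaffolds, and 48 of these held 1 member. None was among the 113 models on the male sex chromosome sequences Chr_Y_A and Chr_Y_B, of which 24 had at least 5 CPM in Tak-1. These 24 were 0.231% of the other genes at that level, so few that nothing is read from the absence of members. Scaffolds with a single gene model held 10 of the 103 members (9.71%), against 0.980% of the other genes of at least 5 CPM. Besides the 3 already described, these included the gene on scaffold_1958 from 546 to 3197, with 13.3, 29.6 and 27.3 CPM in Tak-1, against 0.345, 0.316 and 0.676 CPM in Mpbes1. The other 6 had Tak-1 means of 5.01 to 10.2 CPM. In genes at 2 to 4 times and at 4 to 8 times, 4.42% and 2.75% lay on such scaffolds, and 2.36% of the genes at over 2 times in Mpbes1 did. Of the 21 genes with at most 3 mutant counts, 0 did. Over all 19287 models the share was 2.20%. By level, scaffolds of at most 5 models were counted, which held the same 10 members. They held 5 of 32 members (15.6%) between 5 and 10 CPM, against 3.56% of other genes. Between 10 and 30 CPM it was 3 of 42 (7.14%) against 1.80%. Between 30 and 100 CPM it was 0 of 21 against 1.13%, and over 100 CPM 2 of 8 against 1.13%.

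There were 7 pairs of members that are next to each other, formed by 12 members on 5 scaffolds. The whole table has 18524 neighbouring pairs. In 6 of the 7 pairs both members lie on the same strand, and in 5 they have the same number of exon blocks. The shares of all neighbouring pairs with either trait were not computed, so nothing is read from these counts. Pairs within a run also share a member. The 164 other models next to a member included 84 under 1 CPM in Tak-1. Of the 82 that could be tested, 22 (26.8%) were at least 2-fold lower and 6 (7.32%) at least 2-fold higher by edgeR, against 7.16% and 4.55% of all genes tested. Of the 22, 13 were under 5 CPM in Tak-1, too low for the choice, and 11 had a ratio of at least 8. Among the 60 neighbours of at least 5 CPM, 9 (15%) were at least 2-fold lower, against 4.65% of the other genes at that level.

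The run on scaffold_121 shows the wild-type spread in 3 neighbours at once. The gene from 141033 to 142579 had 4.41, 35.9 and 19.6 CPM in Tak-1, against 1.12, 0.158 and 0.451 CPM in Mpbes1. The gene from 149172 to 150392 had 3.01, 25.9 and 14.4 CPM in Tak-1, against 0.862, 0.316 and 0.958 CPM in Mpbes1. The gene from 152349 to 153952 had 2.06, 23.3 and 14.9 CPM in Tak-1, against 0.604, 0.158 and 0.902 CPM in Mpbes1. In each the first Tak-1 plant was the lowest and the second the highest, and the second Mpbes1 plant was the lowest. Each has 2 exon blocks, and their exons add up to 1020 to 1108 bases. Of the 3, the first lost its edgeR call without the second Mpbes1 library (log2 fold change -4.79) or the third (-5.02). The next gene lost its call without any 1 of the Mpbes1 libraries (-4.65 to -3.99), as did the last (-5.17 to -4.12), which also lost it with no filter on low counts (-4.52). In the test against a 2-fold change none of the 3 was called. Without the second Tak-1 library their log2 fold changes were -4.47, -3.60 and -3.88, instead of -5.19, -4.32 and -4.53 with all libraries. The first had -5.92 without the first Mpbes1 library. Before the run, the model from 137488 to 138364 is no member and had 0.808, 3.34 and 1.54 CPM in Tak-1 (log2 fold change -5.09). The model beyond it, from 135450 to 136686, had 0.441, 1.40 and 1.03 CPM, in the same order of plants. After the run, the model from 160575 to 162493 had 0.220, 0.311 and 0.172 CPM in Tak-1. The model beyond that, from 178220 to 183326, had 5.95, 7.93 and 6.95 CPM.

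On scaffold_193 a pair of genes with 1 exon block each had another order of the wild-type plants. The gene from 162615 to 163701 had 67.3, 42.2 and 40.9 CPM in Tak-1, against 0.0862, 0.158 and 0.282 CPM in Mpbes1. The gene from 165862 to 166754 had 35.1, 24.1 and 25.9 CPM in Tak-1, against 0.431, 0 and 0.338 CPM in Mpbes1. Both were highest in the first Tak-1 plant. The next model of the scaffold, from 185205 to 187222, is no member and was higher in the mutant, with Tak-1 at 7.29 ± 0.52 CPM and Mpbes1 at 47.0 ± 7.3 CPM (SD, n = 3; log2 fold change 2.65). On the other side, the model from 160731 to 161555 had 0.260 ± 0.114 CPM in Tak-1 and 0.0263 ± 0.0456 CPM in the mutant and was too weak to be tested. The model beyond it, from 158210 to 158782, had 1.73 ± 0.44 CPM in Tak-1 and 0.0287 ± 0.0498 CPM in the mutant (SD, n = 3; log2 fold change -5.73).

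On scaffold_130, 3 neighbours of the same strand differ in structure, with 1, 8 and 9 exon blocks. The gene from 22082 to 22696 had 11.5, 20.5 and 14.8 CPM in Tak-1, against 1.72, 1.19 and 1.75 CPM in Mpbes1. The gene from 42079 to 46347 had 17.3, 45.03 and 41.8 CPM in Tak-1, against 0.604, 1.42 and 1.07 CPM in Mpbes1. The gene from 49876 to 53589 had 15.1, 14.9 and 10.04 CPM in Tak-1, against 2.16, 0.711 and 1.58 CPM in Mpbes1. The wild-type plants did not keep a common order over these 3. The next model, from 53690 to 55886, was lower in the mutant by less, at 57.7 ± 1.4 CPM and 19.2 ± 0.9 CPM (SD, n = 3).

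On scaffold_175, 2 neighbours with 5 exon blocks each differed in how much they lost. The gene from 264289 to 266847 had 46.4, 82.0 and 57.2 CPM in Tak-1, against 2.67, 5.37 and 10.03 CPM in Mpbes1. The gene from 269412 to 271985 had 20.4, 32.6 and 30.0 CPM in Tak-1, against 0.172, 0.0790 and 0.789 CPM in Mpbes1. The third model of this stretch, from 274935 to 277093, also has 5 exon blocks on the same strand, and its Tak-1 level of 3.88 ± 1.53 CPM compared with 4.02 ± 1.39 CPM in the mutant (SD, n = 3). Like structure and closeness were therefore found with and without loss.

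On scaffold_27 the 2 members close a row of falling genes of 2 exon blocks. The gene from 1652779 to 1653696 had 57.2, 35.1 and 38.3 CPM in Tak-1, against 5.35, 7.90 and 2.65 CPM in Mpbes1. The gene from 1661940 to 1662748 had 30.2, 25.04 and 22.5 CPM in Tak-1, against 1.55, 1.90 and 0.958 CPM in Mpbes1. The 2 models before them had ratios of 2.68 and 3.43, and the model after them, from 1675721 to 1687390, was at 22.9 ± 4.7 CPM in the wild type and at 47.4 ± 2.1 CPM in the mutant (SD, n = 3). Along these 5 models the ratio rose from 2.68 to 17.6 and then turned to 0.483.

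**Figure D4:**
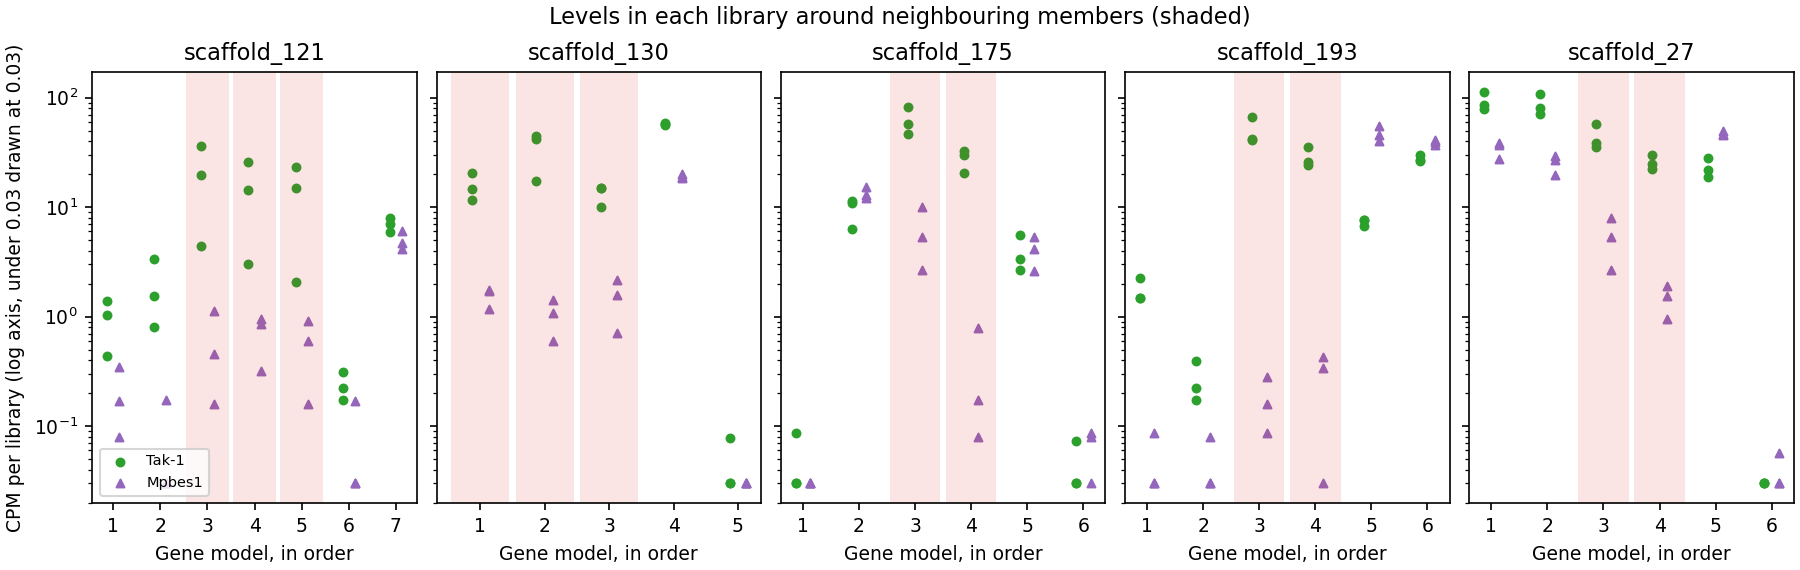
CPM in each library (log axis) of the gene models, in their order along 5 scaffolds, that include the 12 neighbouring members (shaded) and up to 2 models on either side. Circles are Tak-1 and triangles Mpbes1 plants, and in every shaded column the circles lie above the triangles, while unshaded columns include equal and higher levels in Mpbes1.

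The members had fewer exon blocks and less exon sequence than other genes expressed in the wild type. Their median summed exon length was 1637 bases, against 2509 bases in the other genes of at least 5 CPM, and their median number of exon blocks was 3 against 5. With 1 or 2 exon blocks there were 45 members (43.7%) against 24.1% of the others, and with over 10 exon blocks 4 (3.88%) against 22.6%. Over all 19287 models, those under 5 CPM included, the share with 1 or 2 exon blocks was also 43.7%. The contrast depended on the wild-type level. It was missing between 5 and 10 CPM, with 40.6% of members and 40.9% of others, and was 45.2% against 27.4% between 10 and 30 CPM. It was 33.3% against 20.2% between 30 and 100 CPM, and 6 of 8 members against 19.2% over 100 CPM. Genes at 2 to 4 times and at 4 to 8 times had 38.6% and 35.8%, and genes at over 2 times in Mpbes1 had 32.5%. The median summed exon lengths of these classes were 2127, 2057 and 2089 bases, in that order, also below that of the other genes together. The 21 genes with at most 3 mutant counts had 47.6%, above the members' share, and a median summed exon length of 1224 bases. Members with a ratio of at least 100 had 1 or 2 exon blocks in 9 of 14 cases, and those with a ratio of 8 to 16 in 14 of 41. Between these classes it was 13 of 23 at a ratio of 16 to 32 and 9 of 25 at 32 to 100. The share thus did not rise steadily with the ratio.

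**Figure D5:**
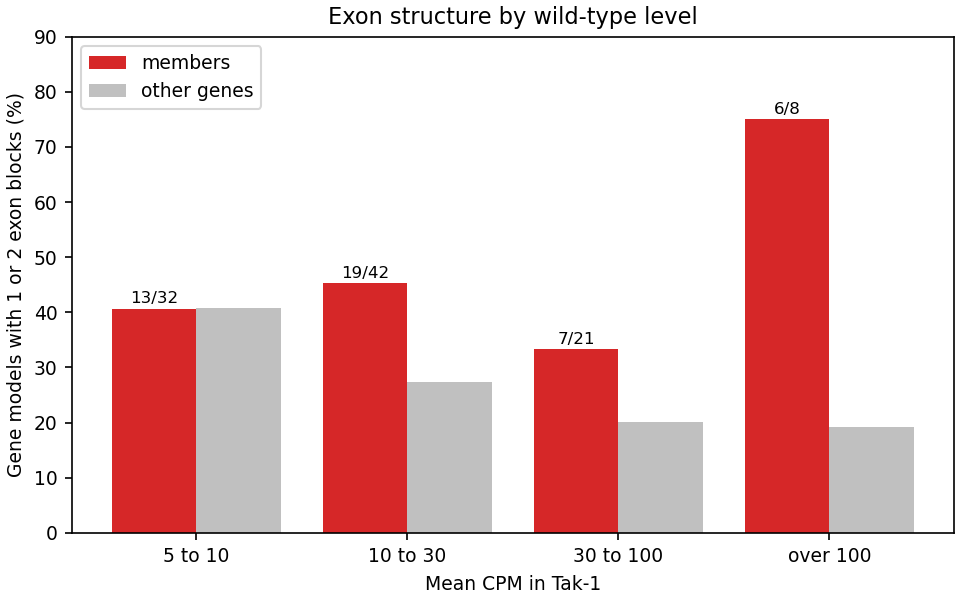
Share of gene models with 1 or 2 exon blocks (%) in 4 classes of mean Tak-1 CPM, for members in red, with their numbers above the bars, and other genes in grey. The shares are alike between 5 and 10 CPM, and the members' share is the higher one in the other 3 classes, up to 6 of 8 over 100 CPM.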

How the data were processed

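The deposited file holds raw counts of reads for each gene model, not normalized by the authors, from 6 libraries of poly(A) RNA made with a stranded kit, per the labels' protocols. Per the submitters' processing notes, the tools were STAR 2.5.2b and featureCounts 1.5.1, with edgeR also listed. Genome build, strand setting and handling of multiply aligned reads were not given in the sources used here. Reads of near-identical copies may thus be missing or shared. CPM was computed from column totals and RPKM from CPM and the deposited exon length. Genotypes were compared over the whole table with edgeR 4.0.16 in R 4.3.3 (quasi-likelihood test, robust, TMM, filterByExpr, genotype as the only term) and Benjamini-Hochberg adjustment, with a call at an adjusted p under 0.05. At least 2-fold means a call with a log2 fold change of at least 1 in size. As a check of the code, the fit was also run on simulated data with less spread between plants than many members had. No statement here rests on it. DESeq2 1.42.0, RLE factors, library sizes alone, other filters, a replicate block and each library left out were alternatives. Neighbours are consecutive models by start position. Genes named are the 10 members highest in RPKM and the 10 largest in ratio, those in runs, and the most and least variable in Tak-1, while those nearest each limit are given by their values. Others are given for context and were chosen after their values were seen. The members and lists were chosen with earlier results of these data known. Limits from counts cover counting error only.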

Additional observations from a re-analysis of the deposited data

How the results depend on the processing

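The choice of members rested on its limits more than on scaling. There were 105 members with TMM-adjusted library sizes and 105 with DESeq2 size factors, both including all 103. A ratio of at least 16 left 62, a ratio of at least 4 gave 212, and more than 30 counts in Mpbes1 left 46, by the construction of these limits. At least 10 CPM left 71, at least 2 CPM gave 140, and no minimum of mutant counts gave 124. With 1 library left out there were 93 to 113 members, and 65 of the 103 were chosen whichever library was left out. Without the third Mpbes1 library 85 of them were chosen again. edgeR called 98 to 103 members lower with 1 library left out, 101 with no filter, 99 when tested against a 2-fold change and, where 5 CPM or more was required in 3 libraries, all 80 that remained. DESeq2 called 103. The median log2 fold change was -4.58 to -4.17 with 1 library left out, -4.58 being without the third Mpbes1 library. Another scaling moved the median of all genes by at most 0.04. The replicate numbers were not shown to pair the samples, as same-numbered deviations correlated at 0.17, -0.03 and 0.14. The replicate block called all 103 members, with a median of -4.27, and 5246 genes in all against 4977. The share of counts was 0.439% to 0.481% in Tak-1 and 0.0182% to 0.0211% in Mpbes1 with 1 library left out, and 0.357% and 0.0141% without the most abundant member. Neighbouring pairs numbered 5 to 8 with 1 library left out, 11 when 1 other model may lie between and 3 at a ratio of at least 16. For 26 named members, 317 of 334 alternative log2 fold changes kept their call and 17 lost it, none changing sign. Depth limits statements on Mpbes1 levels up to 0.259 CPM per library.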
